A study of Homo sapiens with 3 samples.

Results

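RSAD2, IFI6, IFI27, IFI44, IFI44L, BST2, MX1, MX2, XAF1 and RARRES3 are genes that interferon is known to induce and whose products act against viruses or on cell survival. These 10 genes, of the 22613 listed in each library, were taken by symbol, and they were chosen with the effect of E2F1 siRNA already known, some because they were higher and some, such as MX1, because they were not. Their differences between siE2F1 and control are therefore described here and not tested. RNA sequencing was done on LNCaP-abl, a human prostate cancer line that grows without androgen, kept in phenol-red-free medium with charcoal-stripped serum, glutamine and antibiotics. Cells received a lipid reagent with control siRNA (2 libraries, numbered 0 and 1 in the labels) or with a pool of siRNAs against the transcription factor E2F1 (1 library, called siE2F1), and RNA was taken at 72 h. All groups thus share the cell line, the medium and the transfection, there was no untransfected group, and the effect of 1 pool cannot be told from that of E2F1 loss.

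Interferons are secreted proteins that cells make when they sense foreign nucleic acid. They bind receptors coupled to JAK kinases. Known sequence elements in front of target genes are the interferon-stimulated response element (ISRE) and the gamma-activated site (GAS). RSAD2 encodes viperin, a radical SAM enzyme that makes a chain-terminating nucleotide. IFI6 and IFI27 are small related membrane proteins, BST2 (tetherin) holds enveloped virus particles on the cell surface, and MX1 and MX2 are dynamin-like GTPases that block incoming viruses. IFI44 and IFI44L are related cytoplasmic proteins, XAF1 binds the caspase inhibitor XIAP, and RARRES3 is a small phospholipase-like protein that retinoids also induce.

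The first sequences below are from promoters of genes higher in siE2F1, of MX1, which was not, and of IFI44L, which was barely detected. Each is a 30-base stretch with a match to the ISRE core (TTTC, any NN pair, TTTC, on either strand) in capitals. They come from RefSeq (build GRCh38.p14), in windows from 250 bases before to 50 bases after an annotated transcript start, and are written 5′ to 3′ along the gene's strand. Of the 10 genes, 8 were matched to that table, with 14 windows; MX2 and RARRES3 had no entry.
IFI6, chr1:27672288-27672317, minus strand: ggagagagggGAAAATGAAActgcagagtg
RSAD2, chr2:6877622-6877651, plus strand: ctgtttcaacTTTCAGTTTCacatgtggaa
IFI27, chr14:94110618-94110647, plus strand: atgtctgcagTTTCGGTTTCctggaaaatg
BST2, chr19:17405741-17405770, minus strand: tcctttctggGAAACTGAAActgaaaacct
IFI44, chr1:78649761-78649790, plus strand: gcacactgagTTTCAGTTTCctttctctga
IFI44L, chr1:78620365-78620394, plus strand: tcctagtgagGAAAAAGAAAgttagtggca
MX1, chr21:41420559-41420588, plus strand: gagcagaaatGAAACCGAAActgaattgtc

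The ISRE core lay in 10 of the 14 windows and in 7 of the 8 genes, against 3.57% of all 35116 windows and 4.38% of the 27305 genes in the table. Windows of 1 gene can overlap, so that the 2 windows of IFI27 hold the same matches, as do those of IFI44. IFI6 had 3 matches, and IFI27, BST2 and IFI44L had 2 each in a window. In BST2 the 2 matches overlap each other by 4 bases. MX1, which was not higher in siE2F1, had the core in 2 of its 3 windows, in 1 of them just after the start. XAF1 alone of the 8 had none in its 2 windows. It did hold TTTCNTTTC, a spacing looked for after the first results were seen, which 3.12% of all windows hold.
XAF1, chr17:6756031-6756060, plus strand: ttgcctgcaaGAAACGAAActcaaccgaaa

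The GAS motif TTCNNNGAA was found in windows of IFI27, BST2 and MX1, against 7.66% of all windows. In each of the 3 a GAS match overlaps an ISRE core match. An E2F motif (TTTCCCGC, TTTGGCGC, TTTCGCGC or TTTGCCGC, either strand) was found only in the first of the 2 RSAD2 windows, where it occurs at 2 places, against 3.31% of all windows. That window lies upstream of the one shown above, at another annotated start.
RSAD2, chr2:6865753-6865782, plus strand: ccaggcgccgGCGGGAAAcgaaacccggag
RSAD2, chr2:6865787-6865816, plus strand: ccaggcgccaGCGGGAAAcgaaagcgaagc

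In these stretches the capitals mark the E2F match, read on the opposite strand. Each overlaps a TTTCNTTTC match, also on the opposite strand. A match is a run of letters, not a measured binding site.

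**Figure D1:**
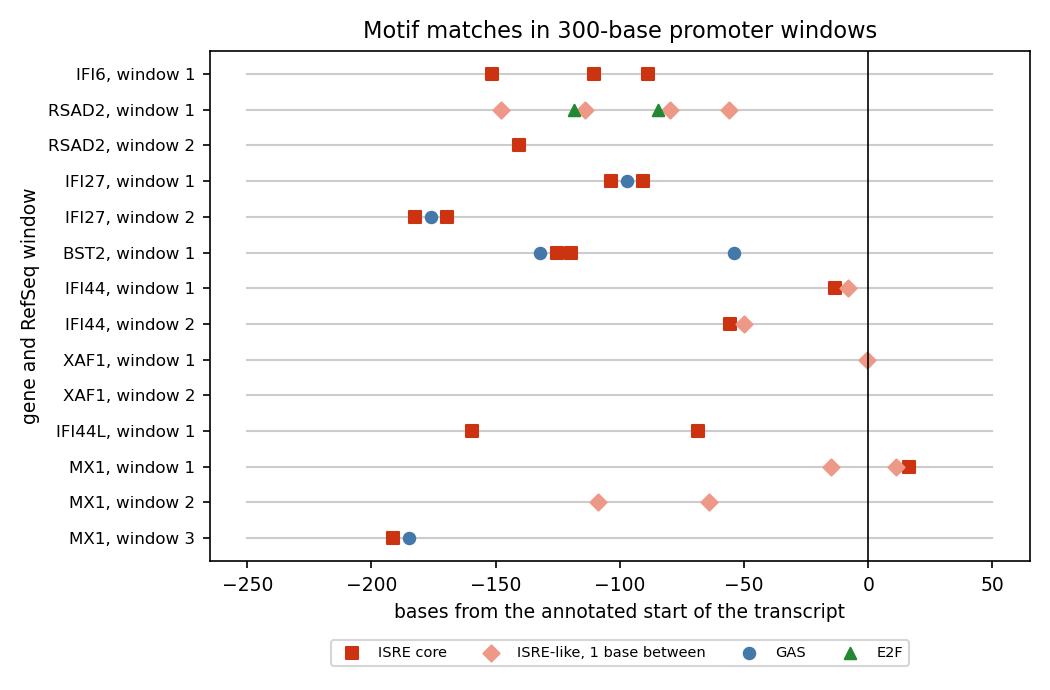
Positions of motif matches (x axis, bases from the annotated transcript start) in the 14 RefSeq promoter windows of 8 interferon effectors (y axis), for the ISRE core, its shorter-spaced form, GAS and E2F motifs. Genes are ordered by their difference between siE2F1 and control, highest first; MX1, at the bottom, holds ISRE core matches in 2 of 3 windows, and XAF1 holds none.

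Values are FPKM, fragments mapped to a gene scaled by its length and by the size of the library, recovered from the deposited log2 values. The files give no read counts, so library depth is unknown and no counting interval can be set. E2F1 itself measured 10.6 FPKM in each control and 1.68 in siE2F1. The labelled cell type was seen in most of its luminal markers, of which 16 were listed and 14 averaged 1 FPKM or more. FOLH1 was at 318, 339 and 339 FPKM and HOXB13 at 123, 119 and 94.6 FPKM. The order control 0, then control 1, then siE2F1 is kept for all triplets of values. KLK2 and the androgen-driven KLK3 were at most 0.417 and 0.156 FPKM. The 7 leukocyte markers matched, of 15, summed to 13.5, 13.7 and 14.2 FPKM, mostly CD68 and LYZ, with CD4 at most 0.0304 FPKM, PTPRC at 0.842, 1.15 and 0.423 FPKM and CD8A at 2.52, 2.87 and 3.57 FPKM. The 5 stromal and endothelial markers matched, of 12, summed to 4.21, 3.74 and 3.23 FPKM. In bulk RNA, more cells expressing a gene and more RNA per cell cannot be told apart. Nothing in the labels ties the controls to different cultures, so their spread, and any p-value resting on it, may be technical.

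On the log2(FPKM + 1) scale the 10 genes split into 6 that were at least 1 unit above both controls and 4 that were not. The 6 were IFI6, RSAD2, IFI27, RARRES3, BST2 and IFI44, each between 6.34 and 27.7 times its FPKM in a control. XAF1 was higher by less than 2-fold, MX1 was slightly below both controls, and MX2 and IFI44L were close to 0 in every library, where a ratio of FPKM can pass 2 (2.19 and 5.09 for MX2) on very little signal. Over the 14401 genes that average 1 FPKM or more, called tested here, 0.743% were at least 1 such unit above both controls and 0.833% at least 1 unit below both. By mere order, 9 of the 10 were above both controls and 1 was below. Of the 8 that were tested, 7 were above both and 1 below, where 43.7% and 39.7% of all genes tested were. Since the genes were chosen for these differences, these shares are given for scale alone.

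**Figure D2:**
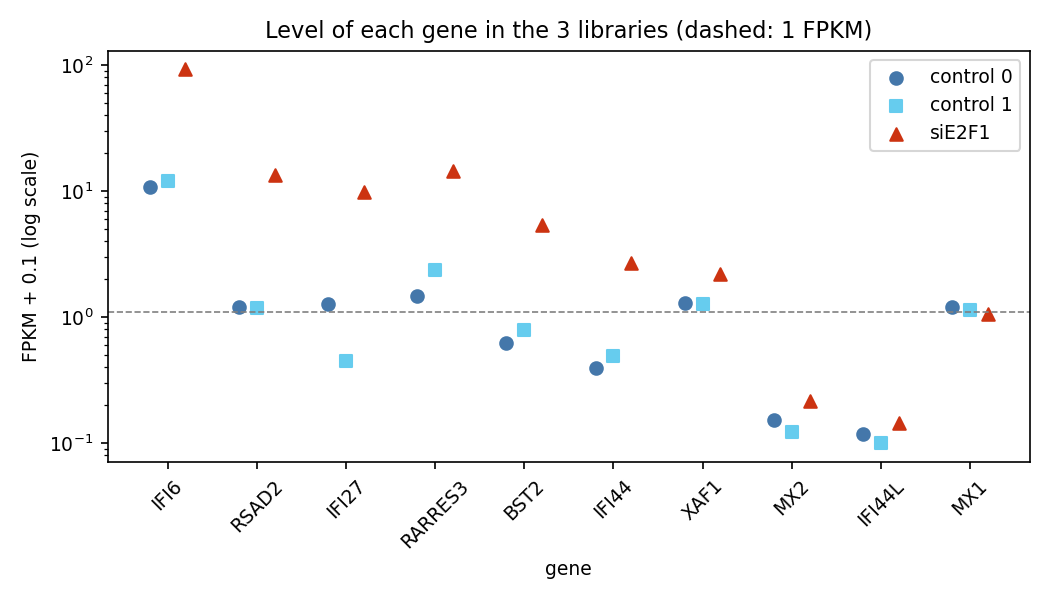
FPKM + 0.1 on a log axis (y axis) for each of the 10 genes (x axis, ordered by difference) in control 0, control 1 and siE2F1, 1 point per library. The siE2F1 points of the first 6 genes lie well above both controls, those of MX1 lie together near 1 FPKM, and MX2 and IFI44L stay near the bottom of the range.

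IFI6, a mitochondrial and endoplasmic reticulum protein that restrains apoptosis and flavivirus replication, was the most abundant of the genes in every library. It stood at 10.6 FPKM in control 0, 11.9 in control 1 and 92.6 in siE2F1. The controls lay close together and siE2F1 far above them, at 8.72 and 7.77 times their FPKM. IFI6 was above 71.1% and 73.3% of all listed genes in the controls and above 96.6% in siE2F1. It made up 60.7% and 63.0% of the summed FPKM of the 10 genes in the controls and 65.6% in siE2F1, so its share hardly moved while the sum went from 17.5 and 18.9 to 141.1 FPKM. Its difference of 2.93 log2 units (log2(FPKM + 1), siE2F1 minus the mean of the controls) was the largest of the 10 on that scale. The order changes with the scale and the control: IFI27 and RSAD2 lay above IFI6 with 0.1 FPKM added in place of 1 (3.69, 3.51 and 3.03), and IFI27 did against control 1 alone (2.99 and 2.86).

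RSAD2 was at 1.10 FPKM in control 0, 1.08 in control 1 and 13.4 in siE2F1. Both controls were near the same low level and siE2F1 was 12.2 and 12.5 times as high in FPKM. On the log2(FPKM + 1) scale the difference was 2.79, against -0.01 between the controls. Among the 13928 genes tested that remain without small RNA genes (snoRNAs, snRNAs and microRNAs, by name), it ranked 4th from the top in log2 difference, just after IFI6 at 3rd.

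IFI27, a relative of IFI6 linked to apoptosis and to antiviral defence, measured 1.18 FPKM in control 0, 0.351 in control 1 and 9.71 in siE2F1. Its controls differed more than those of any other of the 10 genes, so that siE2F1 was 8.23 times control 0 but 27.7 times control 1 in FPKM. The log2(FPKM + 1) difference was 2.30 against control 0 and 2.99 against control 1, and 0.69 separated the controls themselves. The size of its difference therefore rests on which control is used, although siE2F1 lay far above both.

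RARRES3 was at 1.38 FPKM in control 0, 2.26 in control 1 and 14.3 in siE2F1, the second highest level of the 10 there. Its controls also differed, by 0.45 log2 units, and siE2F1 was 10.4 and 6.34 times their FPKM. BST2 was at 0.526, 0.688 and 5.28 FPKM, 10.0 and 7.67 times the controls, with a log2 difference of 1.97. IFI44 was at 0.296, 0.391 and 2.58 FPKM, 8.71 and 6.60 times the controls. Its log2 difference was 1.42, or 2.60 with 0.1 FPKM added before the logarithm in place of 1, because the scale understates changes of low genes. BST2, IFI44 and IFI27 had control means below 1 FPKM and reached the 1 FPKM filter only through siE2F1.

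**Figure D3:**
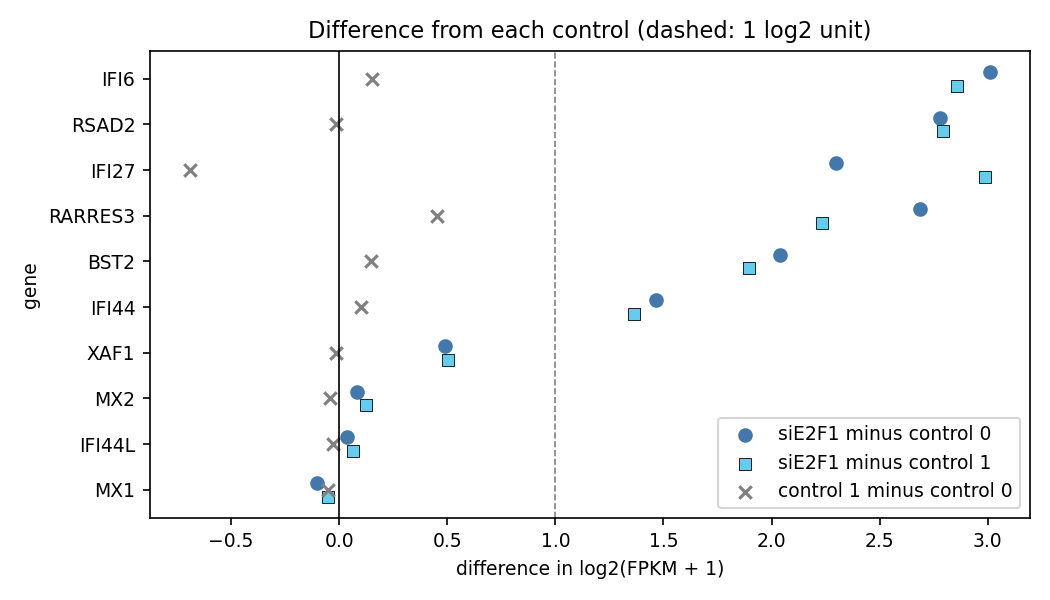
Difference in log2(FPKM + 1) (x axis) of siE2F1 from control 0 and from control 1, and of control 1 from control 0, for each of the 10 genes (y axis). In 6 genes both siE2F1 points lie beyond 1 log2 unit; the controls lie furthest apart for IFI27 (-0.69) and RARRES3 (0.45).

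RSAD2, MX1 and XAF1 started from nearly the same level and ended apart. MX1 was at 1.11 FPKM in control 0, 1.04 in control 1 and 0.968 in siE2F1. The 3 values lay within 0.10 log2 units of each other, siE2F1 was the lowest, and the distance from siE2F1 to control 1 (0.05) was about as large as that between the controls (0.05). XAF1 was at 1.20, 1.18 and 2.09 FPKM, so that siE2F1 was 1.74 and 1.77 times the controls. On the log2(FPKM + 1) scale XAF1 differed by 0.50, while its controls differed by 0.02. With 0.1 FPKM added in place of 1, the differences of XAF1 and MX1 were 0.76 and -0.14. In order of size, XAF1 lay furthest up among the genes under 1 log2 unit from both controls and IFI44 lowest among those past it.

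Relatives that lie side by side in the genome had unlike levels. IFI44L, next to IFI44 on chromosome 1, was at 0.019 FPKM in control 0, listed at 0 in control 1 and at 0.045 FPKM in siE2F1. IFI44 was 57.4 times as abundant as IFI44L in siE2F1, in FPKM, which is per length. MX2, next to MX1 on chromosome 21, was at 0.0528, 0.0228 and 0.116 FPKM, so that siE2F1 was the highest of 3 values near 0. MX1 was 21.1, 45.7 and 8.35 times as abundant as MX2 in control 0, control 1 and siE2F1. At such levels, with no read counts, a difference in MX2 or IFI44L can be neither shown nor dismissed, and both fell short of the 1 FPKM mean.

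Sequence shared between genes was checked, since reads from it can be counted for either. In GENCODE transcripts, IFI44 and IFI44L had 0 stretches of 31 bases in common, as did IFI6 and IFI27, while MX1 and MX2 had 38 of the 8794 in MX1. Shared with any other gene, on either strand, were 4.97% of the stretches of MX1, 2.56% of MX2 and 2.24% of IFI27. For XAF1, 36.5% of its 31-base stretches also occur on the opposite strand in PRAL, an overlapping noncoding gene. The kit used keeps no strand, hence PRAL reads may count towards XAF1 and its level is uncertain.

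**Figure D4:**
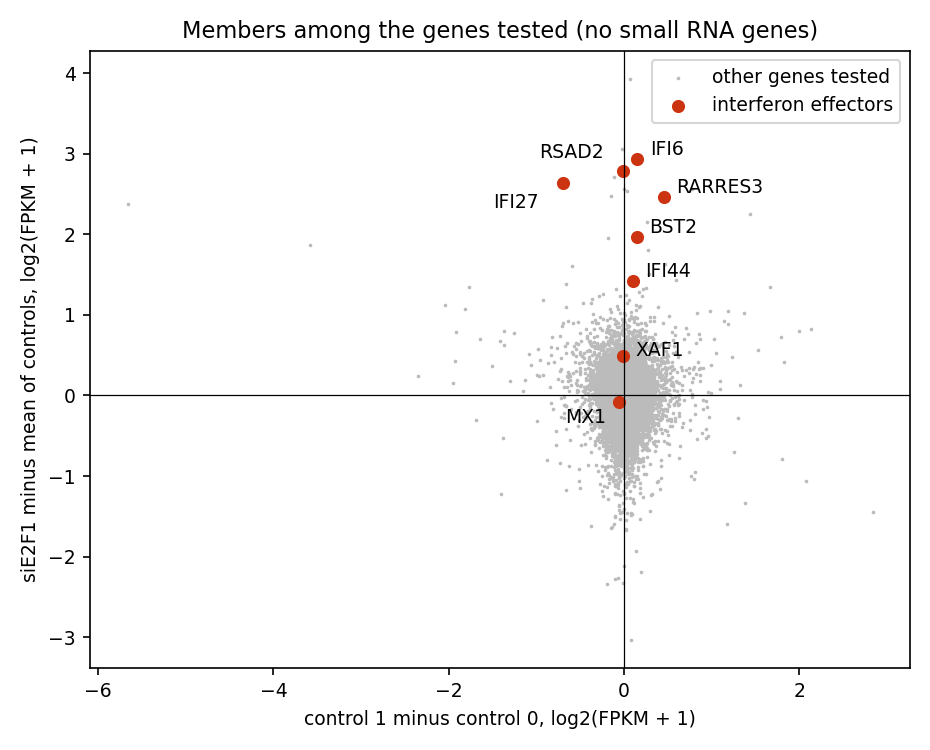
Each point is a tested gene, small RNA genes left out, placed by the difference between the controls (x axis) and by that between siE2F1 and their mean (y axis), both in log2(FPKM + 1). IFI6, RSAD2, IFI27, RARRES3, BST2 and IFI44 lie at 1.42 to 2.93, above the bulk of genes, XAF1 (0.50) lies at its upper part and MX1 (-0.08) inside it.

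The genes whose 3-library profile was closest to that of IFI6 were IFIT1, LOC100506963 and IFIT2, at distances of 0.161, 0.322 and 0.339. Distance is Euclidean between log2(FPKM + 1) values centred on each gene's mean, over 3 libraries and 12563 genes with symbols. BST2 was closest to OAS1, ISG15 and IFIT3 (0.159, 0.171 and 0.461), and IFIT genes were among the 3 nearest of RSAD2 and IFI27. RARRES3 was closest to ENO1-AS1, ISG15 and IFIT2 (0.242, 0.286 and 0.305). IFI44 was closest to GLYATL1, STX19 and IL36G (0.121, 0.122 and 0.157), which are on no list used here. GLYATL1 was at 18.3, 20.7 and 48.6 FPKM and IFI44 at 0.296, 0.391 and 2.58 FPKM. Their nearness holds on the log2(FPKM + 1) scale, which understates changes of low genes. For MX1 the nearest were DDX55 (0.00236), SPTLC3 (0.00374) and XLOC_013473 (0.00408). Most genes differed little, so profiles with small differences have many near ones: 2656 lay within 0.1 of MX1 and 402 within 0.1 of XAF1. Each of the 6 higher genes had 0. Few genes differ as much, and the 6 were chosen for their difference, so this count says nothing more about them.

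Other interferon-stimulated effectors were mostly higher, over a wide range. Of 44 listed genes 33 were tested, and 29 of them were above both controls and 1 below, where 43.7% and 39.7% of all genes tested were, with a median difference of 0.39 against 0.01 over all genes tested (0.03 between the controls). At least 1 log2 unit above both were 7 of 33, where 0.743% of all genes were: OASL, IFIT1, IFIT2, IFIT3, ISG15, OAS1 and IFITM1. Limma, a moderated linear model over all genes with Benjamini-Hochberg adjustment, called 3 of the 33 higher, where it called 0.312% of all genes higher and 0.104% lower. These were OASL, an oligoadenylate synthetase relative (log2 difference 3.93, standard error 0.0737, adjusted p = 0.0191), IFIT1 (3.06, adjusted p = 0.0191) and IFIT2 (2.53, adjusted p = 0.0232), which bind or sense viral RNA. Without small RNA genes limma called 11 of the 33 higher and 0 lower, where 4.17% of genes were called higher and 6.36% lower. The model has 1 residual degree of freedom, from the 2 controls, and assumes that the single siE2F1 library varies as they do.

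The flat behaviour of MX1 had company among the effectors. LAP3, a peptidase, stood at 43.9, 44.0 and 43.9 FPKM and PML, a nuclear body protein, at 4.67, 4.19 and 4.35 FPKM, in the order control 0, control 1, siE2F1; both are named after their values were seen. Effectors with and without the ISRE core overlapped in their differences. Among tested effectors with a RefSeq window, 4 of 19 with the core and 1 of 7 without it were at least 1 log2 unit above both controls. Over all genes tested that share was 0.743%. Their median differences were 0.39 and 0.25, with ranges of -0.002 to 3.06 and 0.11 to 1.81 that overlapped widely. Not every tested effector had a window. OASL, with the largest difference of the effectors (3.93), is in neither group, and whether the core matters was not tested.

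Of 21 interferon ligands listed, 4 were matched, and their transcripts were near 0. IFNL1, a type III interferon, was at 0.127 FPKM in control 0, 0.0836 in control 1 and 0.495 in siE2F1, the highest level of the 4. IFNB1, the type I interferon that most cells make first, was listed at 0 in control 0 and was at 0.0486 FPKM in control 1 and 0.0656 in siE2F1. All 4 ligands were highest in siE2F1, as were 43.7% of the genes tested, but no such share was taken for genes near 0. Of all listed genes, 1791, 1836 and 1615 were at 0 in control 0, control 1 and siE2F1. No ligand reached 1 FPKM in any library, so none was tested. Whether interferon was secreted was not measured.

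Of the 21 receptors and signal transducers, 19 were tested, with 10 above both controls and 6 below, near the shares over all genes (43.7% and 39.7%), and a median difference of 0.09. Limma over all genes called 0 of them in either direction, and without small RNA genes it called 2, both higher, where 4.17% of genes were called higher and 6.36% lower. Among them was IRF9, an interferon regulatory factor, at 4.29, 4.13 and 11.2 FPKM (log2 difference 1.23, adjusted p = 0.0221 without small RNA genes). STAT2 was at 16.0, 13.2 and 22.4 FPKM (0.59, adjusted p = 0.0641). IRF7, which amplifies interferon production, was at 6.89, 8.07 and 7.30 FPKM, between its controls. The receptor chains IFNAR1 and IFNAR2 were at 12.4 and 7.15 FPKM in siE2F1, a little below both of their controls.

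Of the nucleic acid sensors and adaptors, 11 were tested, 8 of them above both controls and 3 below (43.7% and 39.7% over all genes), with a median of 0.24. Limma called 0 over all genes and 3 without small RNA genes, all higher (4.17% of all genes at that setting). These were the RNA helicases DDX58 (2.51, 2.27 and 5.25 FPKM, log2 difference 0.88, adjusted p = 0.033 without small RNA genes) and IFIH1 (3.17, 3.36 and 5.62 FPKM, 0.63, adjusted p = 0.0374), and the kinase IKBKE (3.82, 3.75 and 5.87 FPKM, 0.52, adjusted p = 0.0403).

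**Figure D5:**
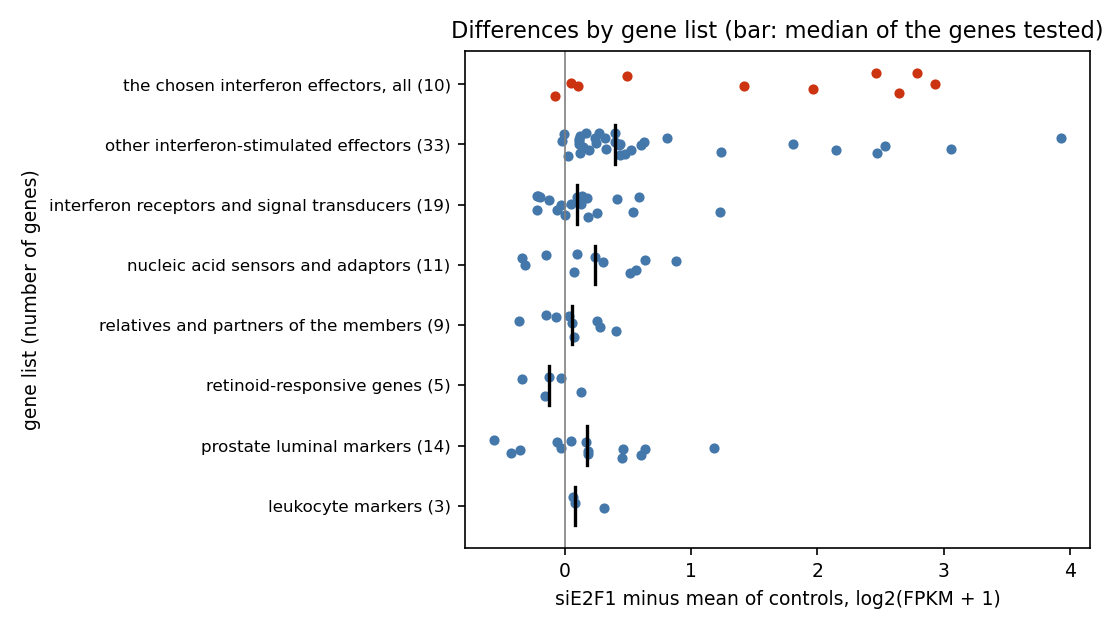
Difference of siE2F1 from the mean of the controls in log2(FPKM + 1) (x axis) for all 10 interferon effectors and for the tested genes of 7 other lists (y axis), 1 point per gene, with each other list's median as a bar. The medians of the other lists lie between -0.13 and 0.39; the chosen effectors spread from -0.08 to 2.93.

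Of 9 tested relatives and partners of the 10 genes, 5 were above both controls and 3 below (43.7% and 39.7% over all genes), and limma called 0 with and without small RNA genes. The furthest were BIRC3, an inhibitor of apoptosis, at 0.41 and the dynamin relative DNM1L at -0.36 in log2 (17.9, 17.9 and 13.7 FPKM). The IFI27 relatives IFI27L1 (6.27, 6.08 and 7.69 FPKM) and IFI27L2 (18.0, 23.2 and 21.3 FPKM), which flank IFI27 on chromosome 14, were 0.28 and 0.06 higher in log2. PLA2G16, of the RARRES3 family, was at 6.66, 6.58 and 6.25 FPKM, and XIAP, the partner of XAF1, at 15.6, 15.3 and 15.9 FPKM. Of 14 retinoid-responsive genes and receptors listed, 7 were matched and 5 tested. Of the 5, 1 was above both controls and 3 below (43.7% and 39.7% over all genes), with a median of -0.13. The furthest were the retinoic acid receptor RARA at 3.02, 2.65 and 2.02 FPKM and the retinaldehyde reductase DHRS3 at 2.73, 2.86 and 2.40 FPKM. RARRES3 was 2.46 log2 units higher, and whether retinoids had a part in that was not tested.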

How the data were processed

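The authors deposited log2 FPKM values for 3 libraries (control 0, control 1, siE2F1; groups from the sample titles). TopHat2 2.0.4 and Cufflinks 2.0.2 were used with hg19, per the submitters' processing notes; parameters, annotation and normalization are not given in the sources used here. Per the labels' protocols, the kit was TruSeq RNA v2. The lowest value is log2 of 0.1, so FPKM was taken as 2 to the deposited value minus 0.1. The sorted values of the libraries differ by at most 0.0653 log2 units, a pattern of quantile normalization, which hides any shift common to most genes.

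Analyses used log2(FPKM + 1). Genes averaging 1 FPKM or more (14401, of which 473 were small RNA genes named SNOR, MIR, SCARNA or RNU) were fitted in R 4.3.3 with limma 3.58.1 (mean-variance trend, two-sided, Benjamini-Hochberg at 0.05). The fit was also run on simulated data, and its recovery there is not given here. The genes, lists and tests were chosen with earlier results of these data known. The naming rule took all 10 genes, E2F1, from each list up to 4 called or at least 2-fold genes or else the 2 furthest, set upstream genes, and the 3 nearest profiles; 1 such gene is not reported here. The planned protein comparison was not made; transcripts of GENCODE 29 were compared by 31-base stretches instead. Promoters came from RefSeq (GRCh38.p14), not the build of the files. Alternatives were a pseudocount of 0.1, no filter, a mean of 5 FPKM, a common median, quantile normalization, no trend, no small RNA genes, each control left out, and the minimum read as a floor.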

Additional observations from a re-analysis of the deposited data

How the results depend on the processing

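The 6 genes at least 1 log2 unit above both controls numbered 6 under every setting with a count except a minimum of 5 FPKM. There IFI27, BST2 and IFI44 fell below the filter and 3 were left. Several settings could not alter this count: dropping the filter or the small RNA genes leaves a gene's own difference unchanged. The common median did too, and quantile normalization hardly moved it. Of the other effectors, limma called 3 higher, but 11 without small RNA genes and 0 with no filter on mean FPKM. Over all genes limma called 45 higher and 15 lower. With a pseudocount of 0.1 it called 7 higher, with a minimum of 5 FPKM 26 higher, and without small RNA genes 581 higher and 886 lower. With no filter it called 0 higher and 0 lower of 21691, with 4862 genes at an unadjusted p under 0.05. By size, 107 genes were above and 120 below both controls; with control 0 in the place of siE2F1 the counts were 78 and 56, and with control 1 they were 52 and 57. The counts were 220 below with a pseudocount of 0.1, 71 above with a minimum of 5 FPKM, and 41 above and 76 below without small RNA genes. Leaving out a control, which makes the size rule easier to meet, gave 191 to 193 above and 202 to 228 below, with no test. The common-median shift moved no library (0). No paired analysis was possible because there is a single siE2F1 library, whose label carries no number. The 6 genes were chosen as lying above both controls, so a positive difference was bound to hold under the settings run. Its size ranged from 1.35 log2 units at the lowest (IFI44) to 3.69 at the highest (IFI27, pseudocount of 0.1). Low level and unknown depth limit MX2 and IFI44L most: with a pseudocount of 0.1 their differences were 0.66 and 0.41.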

Other observations

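The genes beside the 10 effectors on the chromosomes were looked up next. Counting the 2 protein-coding RefSeq genes on each side, 32 neighbours were not themselves among the 10, 18 of them were matched and 16 tested. Of these, 6 were above both controls and 5 below (43.7% and 39.7% over all genes tested), and the median difference was 0.05. None of the 16 was at least 1 log2 unit beyond both controls, as few genes were in all (0.743% above and 0.833% below). The furthest was ID2, near RSAD2, at 19.4, 20.9 and 14.6 FPKM, a log2 difference of -0.44. CMPK2, a nucleotide kinase beside RSAD2 that is itself induced by interferon, was at 1.58 FPKM in control 0, 1.53 in control 1 and 2.03 in siE2F1, a log2 difference of 0.25 against 2.79 for RSAD2. MVB12A, beside BST2, was at 9.52, 11.4 and 12.1 FPKM. TMPRSS2, a protease gene beside MX1, was at 20.5, 19.5 and 14.6 FPKM. FAM76A, beside IFI6, was at 2.75, 2.76 and 2.57 FPKM. The neighbours were looked up after the effectors' values were known.

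Of 15 antigen presentation genes listed, which interferon also induces, 4 were matched and 3 tested, so most of the list is not covered. B2M, the light chain of class I molecules, measured 304.6 FPKM in control 0, 341.8 in control 1 and 473.4 in siE2F1. NLRC5, the class I transactivator, was at 1.14, 1.11 and 1.11 FPKM, a flat gene at a level like that of MX1. PSMB10, a subunit of the immunoproteasome, was at 17.9, 19.9 and 17.3 FPKM. B2M was 0.55 log2 units above the mean of its controls. Of the 3, 1 was above both controls and 1 below, where 43.7% and 39.7% of all genes tested were.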
